A study of Mus musculus with 8 samples.

Results

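Laminins, nidogens and the heparan sulphate proteoglycans perlecan and agrin are the glycoproteins of the basement membrane, the thin matrix sheet under epithelium and around muscle, nerve and vessels. The 10 genes described here, Lama2, Lama4, Lama5, Lamb1, Lamb2, Lamc1, Nid1, Nid2, Hspg2 and Agrn, were taken by name from a table of 53801 genes. Each matched 1 row, and all 10 passed the filter on low counts. RNA came from CD45-CD31- stromal cells of mouse small intestine, meaning cells without the blood cell marker CD45 and the endothelial marker CD31, sorted by flow cytometry into YFP+ and YFP- cells from LTβRYFP mice. All 8 libraries, 4 per gate, share that mouse line, tissue and gate, and the labels give no treatment, age or sex, nor the promoter, allele design or cells in which the YFP is driven. No label ties a library to its own animal, and the p-values therefore reflect the spread among these libraries alone, which may be technical. Where same-numbered libraries are taken as pairs, that spread is the one left after differences between replicate numbers are removed. In 8 of 8 samples the title names one YFP sign and the description and genotype name the other. YFP+ and YFP- below follow the description and genotype, and the count columns carry the same signs in their names (neg and pos). With the titles' signs every direction below would be the opposite.

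A laminin is a trimer of 1 α, 1 β and 1 γ chain that assembles into a network on the cell surface. Nidogens bind the γ chain encoded by Lamc1 and tie that network to the collagen IV network, and perlecan (Hspg2) and agrin (Agrn) link both to cell receptors such as dystroglycan. In the gut wall, mesenchymal cells supply much of this matrix, and the sheet below the crypts and villi, the sleeves of smooth muscle cells and of enteric nerves, and the vessel walls differ in their α chains.

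The YFP+ libraries had more Nid2, Lamb1 and Lama4 RNA and less Lama5 and Nid1 RNA than the YFP- libraries. The 2 nidogens moved in opposite directions, and so did the α chain genes Lama4 and Lama5. With same-numbered libraries taken as pairs, 3 of the 10 genes rose and 2 fell by edgeR's quasi-likelihood test (Benjamini-Hochberg adjusted p under 0.05). Over all 16354 genes tested, 11.5% were called, 3.65% higher and 7.85% lower. Calls were more frequent among abundant genes: 23% of the 3772 genes averaging 50 CPM or more (CPM is the count scaled to library size) were called, against 4 of the 9 genes described here at that level. The median log2 fold change was -0.09 over the 10 genes and 0.01 over all genes tested. Without the pairing, 2 rose (Nid2 and Lamb1) and 0 fell, against 4.26% of all genes called, 0.917% higher and 3.34% lower. The YFP+ and YFP- ranges were apart for the same 2 genes, both higher, against 9.64% of all genes tested, 3.78% higher and 5.86% lower.

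Promoter sequence is shown for the 3 called genes that have an entry among the RefSeq promoters (GRCm38.p6), where 7 of the 10 genes matched. Lamb1 rose, and Nid1 and Lama5 fell. Each sequence runs 5′ to 3′ on the gene's own strand and stops at the base before the first annotated start in RefSeq or GENCODE. Capitals mark the GC box (GGGCGG on either strand), a common promoter motif.
Lamb1: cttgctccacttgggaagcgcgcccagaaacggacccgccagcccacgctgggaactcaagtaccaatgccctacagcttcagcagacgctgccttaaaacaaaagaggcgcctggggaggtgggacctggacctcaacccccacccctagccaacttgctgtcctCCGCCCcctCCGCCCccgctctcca
Nid1: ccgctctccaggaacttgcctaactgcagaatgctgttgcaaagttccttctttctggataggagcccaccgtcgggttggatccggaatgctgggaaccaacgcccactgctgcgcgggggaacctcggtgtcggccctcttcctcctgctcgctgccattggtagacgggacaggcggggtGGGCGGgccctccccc
Lama5: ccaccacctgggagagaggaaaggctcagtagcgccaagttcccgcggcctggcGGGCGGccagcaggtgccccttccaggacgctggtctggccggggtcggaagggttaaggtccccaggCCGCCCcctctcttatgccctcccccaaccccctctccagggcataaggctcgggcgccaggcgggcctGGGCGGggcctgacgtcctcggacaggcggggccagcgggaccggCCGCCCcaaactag

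The Lamb1 window (chr12:31265043-31265233, plus strand) holds 2 GC boxes in 191 bases, the Nid1 window (chr13:13437352-13437550, plus strand) holds 1 in 199 bases, and the Lama5 window (chr2:180225860-180226109, minus strand) holds 4 in 250 bases. Over whole windows of 300 bases, 35.7% of all 32851 RefSeq promoter windows hold a GC box on either strand. GC boxes were not limited to called genes. Among matched genes that were not called, the windows of Agrn hold 12 and 2, that of Hspg2 5, that of Lama2 1 and that of Lamb2 0. The TATA box (TATAAA, in 13.6% of windows), the AP-1 motif (TGANTCA, 7.81%) and the NF-kB motif (8.46%) were found in 0 of the 8 windows of the 7 matched genes, and the CArG box of smooth muscle promoters (1.63%) was found in 1 of them, that of Lama2. Both strands were searched, and each motif was counted on its own, whether or not its matches overlapped those of another.

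The α chains carry the sites by which laminins bind cells. Lama2, which encodes the α chain of muscle and peripheral nerve laminin, was by far the most abundant of the 3. Its levels were 1915, 1925, 1967 and 2479 CPM in YFP- replicates 1 to 4 and 1917, 1720, 1653 and 2266 CPM in YFP+ replicates 1 to 4. The 2 libraries numbered 4 stood above the other 6, and the gates overlapped. Lower in 3 of 4 pairs, with -0.14 as the log2 fold change (SE 0.05) and 0.0643 as edgeR's adjusted p, it did not pass. It did pass in 3 of 20 alternatives, among them the one without the libraries numbered 1 (adjusted p = 0.0462), with adjusted p from 0.0150 to 0.947 over the 20. The gene (ENSMUSG00000019899) spans chr10:26980036-27619758 of GRCm38 (minus strand).

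Lama4, the α chain of vessel and muscle laminins, rose modestly. It stood at 574, 614, 627 and 522 CPM in YFP- replicates 1 to 4 and at 658, 715, 696 and 598 CPM in YFP+ replicates 1 to 4. Each YFP+ library was above its own partner, by 0.15 to 0.22 on the log2 scale, but the gates overlapped, and both libraries numbered 4 were the lowest of their gate. edgeR gave a log2 fold change of 0.19 (SE 0.05) with an adjusted p of 0.00656, and without the block the adjusted p was 0.311 (0.00025 to 0.542 over 20 alternatives). The gene (ENSMUSG00000019846) spans chr10:38965515-39110188 of GRCm38 (plus strand).

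Lama5, the α chain most characteristic of epithelial basement membrane, was the lowest of the 10 genes and had the largest fold change among them. It stood at 17.5, 14.4, 9.46 and 11.6 CPM in YFP- replicates 1 to 4 and at 9.01, 4.89, 4.46 and 9.70 CPM in YFP+ replicates 1 to 4, which rests on 119 to 397 counts per library. All 4 pairs fell, from 0.26 in pair 4 to 1.56 in pair 2 on the log2 scale, and the gates overlapped at the values of YFP- replicate 3 and YFP+ replicate 4. edgeR gave a log2 fold change of -0.95 (SE 0.18) with an adjusted p of 5.56e-04, and without the block -0.92 (adjusted p = 0.0861, 4.17e-07 to 0.204 over 20 alternatives). Without the block and without YFP+ replicate 4 it passed (adjusted p = 0.0405). Between the gates, many markers of epithelium and enteric glia fell too, as did some of fibroblasts and endothelium, given below. Within a gate, the epithelial and glial sums did not always follow Lama5. Of 10 epithelial markers 6 fell, their summed level being 46.1 to 95.8 CPM in YFP- and 20.4 to 29.8 CPM in YFP+, and of 10 glial markers 9 fell, from 147 to 240 CPM down to 9.72 to 12.9 CPM. None of these 20 markers was at 0 in all 8 libraries. Among the YFP- libraries, replicate 1 had the highest Lama5 and the lowest summed epithelial markers, while among the YFP+ libraries replicates 1 and 4 were the highest in both. The summed glial markers of YFP- were highest in replicates 1 and 2 (160 and 240 CPM), which also had the most Lama5 of that gate. In YFP+ replicates 1 to 4 they were 9.72, 11.3, 12.9 and 11.5 CPM. There they were highest in replicate 3, which had the least Lama5, and lowest in replicate 1. The part of these cells in the Lama5 result was not tested, and in bulk RNA fewer cells of a type cannot be told apart from less RNA per cell. The gene (ENSMUSG00000015647) spans chr2:180176373-180225859 of GRCm38 (minus strand).

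**Figure D1:**
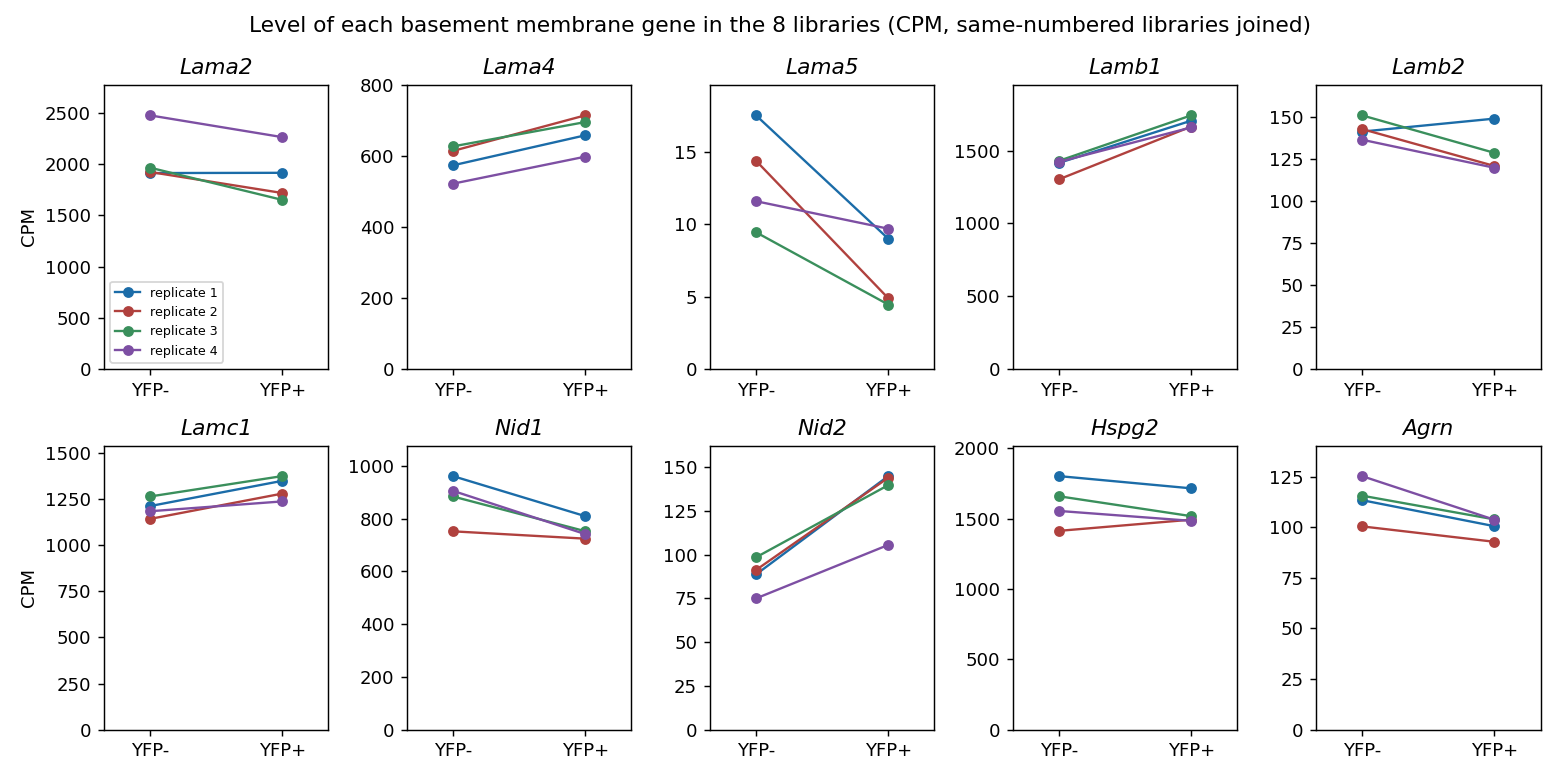
Level of each of the 10 genes in CPM (vertical axes, each from 0) in the 4 YFP- and 4 YFP+ libraries, with same-numbered libraries joined by a line. All 4 lines rise for Nid2, Lamb1, Lama4 and Lamc1, and all 4 fall for Nid1, Lama5 and Agrn. The gates are fully apart for Nid2 and Lamb1.

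The β and γ chains form the long arm of the trimer with the α chain. Lamb1 rose by a small and even amount. It stood at 1416, 1303, 1430 and 1423 CPM in YFP- replicates 1 to 4 and at 1706, 1665, 1742 and 1660 CPM in YFP+ replicates 1 to 4. Every YFP+ library was above every YFP- library. This 1.22-fold difference (log2 fold change 0.28, SE 0.04) had an edgeR adjusted p of 5.78e-05, and without the block the adjusted p was 0.0438 (1.97e-09 to 0.137 over 20 alternatives). Without the block, the call was lost when any 1 of the 8 libraries was left out. The gene (ENSMUSG00000002900) spans chr12:31265234-31329644 of GRCm38 (plus strand).

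Lamb2, the β chain of the neuromuscular junction and kidney filter, did not pass. Its levels were 141, 143, 151 and 136 CPM in YFP- replicates 1 to 4 and 149, 121, 129 and 120 CPM in YFP+ replicates 1 to 4. YFP+ replicate 1 lay within the YFP- range and the other 3 YFP+ libraries lay below it. Lower in 3 of 4 pairs, it had a log2 fold change of -0.15 (SE 0.06) and an edgeR adjusted p of 0.154. Without the libraries numbered 1 it was -0.22 and passed (adjusted p = 0.0426, 0.0426 to 0.706 over 20 alternatives).

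Lamc1, the γ chain of most laminins and the one that binds nidogen, stood at 1213, 1143, 1265 and 1185 CPM in YFP- replicates 1 to 4. In YFP+ it stood at 1350, 1280, 1375 and 1238 CPM. All 4 pairs were higher in YFP+ by 0.06 to 0.16 on the log2 scale, and the gates overlapped. At a log2 fold change of 0.13 (SE 0.04) it did not pass in edgeR (adjusted p = 0.0739), while DESeq2 with the replicate number gave 0.13 with an adjusted p of 0.0289 (0.0253 to 0.726 over 20 alternatives). Lamb2 (ENSMUSG00000052911) spans chr9:108479736-108490530 (plus strand) and Lamc1 (ENSMUSG00000026478) chr1:153218922-153332786 (minus strand).

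The nidogens are single-chain linkers, and the rarer one gained while the common one fell. Nid2 stood at 88.7, 91.2, 98.4 and 75.0 CPM in YFP- replicates 1 to 4 and at 145, 144, 140 and 105.5 CPM in YFP+ replicates 1 to 4. Every YFP+ library was above every YFP- library, with both libraries numbered 4 the lowest of their gate. The 1.51-fold difference (log2 fold change 0.59, SE 0.06) had an edgeR adjusted p of 1.44e-07, and the pairs ran from 0.49 to 0.71 on the log2 scale. Nid2 was the 1 gene of the 10 that passed in all 20 alternatives. The gene (ENSMUSG00000021806) spans chr14:19751265-19811787 of GRCm38 (plus strand), and 437 of its 5174 exonic bases (8.45%) overlap Rtraf on the opposite strand. The mean of Rtraf was 31.5 ± 2.43 CPM among YFP- libraries against 33.3 ± 3.08 CPM among YFP+ libraries (SD, n = 4), and edgeR did not call it (log2 fold change 0.08, adjusted p 0.689).

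Nid1 stood at 962, 752, 884 and 906 CPM in YFP- replicates 1 to 4 and at 810, 725, 753 and 742 CPM in YFP+ replicates 1 to 4. All 4 pairs fell, but YFP- replicate 2 lay within the YFP+ range and its pair fell by only 0.05 on the log2 scale, against 0.23 to 0.29 in the other 3 pairs. Nid1 passed at -0.21 on the log2 scale (SE 0.05), where edgeR's adjusted p was 0.00505. Its adjusted p was 0.248 without the block, 0.0665 without the libraries numbered 3 and 0.0659 without those numbered 4 (0.00047 to 0.451 over 20 alternatives). The gene (ENSMUSG00000005397) spans chr13:13437551-13512269 of GRCm38 (plus strand).

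Neither proteoglycan gene passed the test. Hspg2, which encodes perlecan, stood at 1802, 1413, 1659 and 1554 CPM in YFP- replicates 1 to 4 and at 1715, 1492, 1517 and 1484 CPM in YFP+ replicates 1 to 4. The gates overlapped, and Hspg2 (log2 fold change -0.05, SE 0.05, edgeR adjusted p = 0.609) did not pass in any of the 20 alternatives. Agrn, whose product clusters receptors at the neuromuscular junction, stood at 113, 100.4, 116 and 125 CPM in YFP- replicates 1 to 4 and at 100.5, 92.8, 104 and 104 CPM in YFP+ replicates 1 to 4. Agrn was lower in YFP+ in 4 of 4 pairs, by 0.11 to 0.27 on the log2 scale. It missed the threshold at -0.18 on the log2 scale (SE 0.06), where edgeR's adjusted p was 0.0551, and of 20 alternatives only the filter of 1 CPM in 4 libraries called it (adjusted p = 0.0386, up to 0.607 over the 20). Hspg2 (ENSMUSG00000028763) spans chr4:137468769-137570630 (plus strand) and Agrn (ENSMUSG00000041936) chr4:156165290-156197488 (minus strand).

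**Figure D2:**
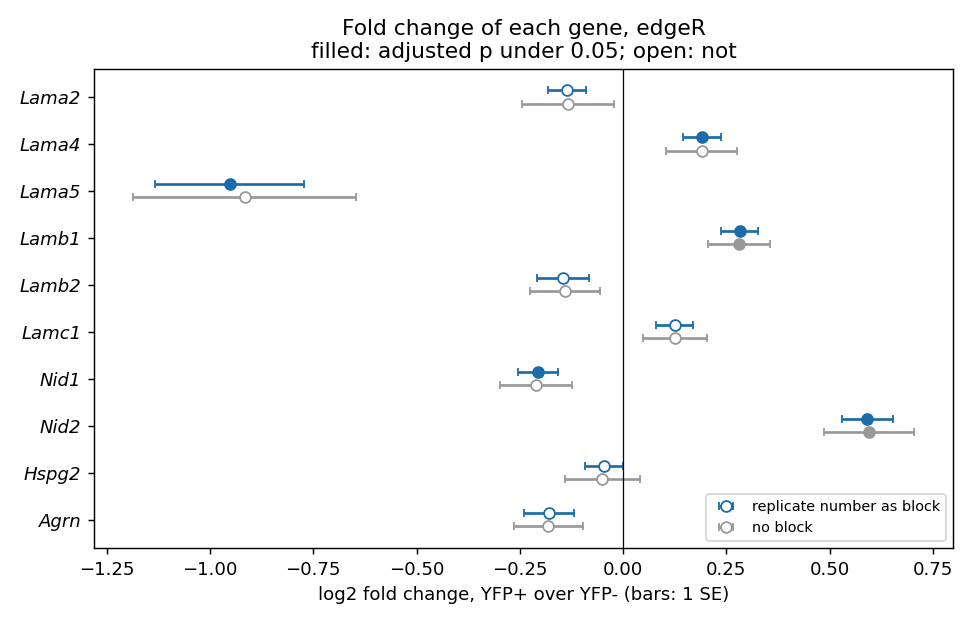
Log2 fold change of YFP+ over YFP- for each gene (horizontal axis) with 1 SE as the bar, with the replicate number as a block (blue) and without it (grey). Filled points have an edgeR adjusted p under 0.05: 5 with the block and 2 without it, with nearly the same estimates in both.

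The authors' deposited table gives log2 fold changes for YFP+ over YFP- that lie close to these. They come from the same counts and are not a separate source. DESeq2 with the replicate number, among the alternatives here, matched them to within 0.0005. In the authors' deposited table Nid2 had 0.60, Lamb1 0.29, Lama4 0.20, Lamc1 0.13, Nid1 -0.20 and Lama5 -0.95. By the adjusted p of the authors' deposited table Lamc1 passed as well (0.0289), while Agrn (0.105) and Lama2 (0.0923) did not.

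Levels of different genes were compared as CPM per kb of exonic length. That length is the merged length of all annotated exons of a gene (16338 bases for Lama2), which can exceed that of its main transcript. The order of genes and the sums and shares below depend on it. In YFP- the order from the top was Lamc1 (145 ± 6.17 CPM per kb), Lamb1 (140 ± 6.07), Lama2 (127 ± 16.7), Nid1 (126 ± 12.8) and Hspg2 (112 ± 11.5), then Lama4 (48.4 ± 3.92), Lamb2 (23.5 ± 0.990), Nid2 (17.1 ± 1.90), Agrn (12.2 ± 1.10) and Lama5 (1.16 ± 0.308; SD, n = 4 throughout). The top 5 overlapped with their neighbours over the 4 libraries and were not separated, although Nid1 was above Hspg2 in each of the 4 libraries, whereas from Hspg2 downwards each gene was above the next in every comparison of libraries. In YFP+ Lamb1 led with 171 ± 3.90 CPM per kb and no longer overlapped Lamc1 (158 ± 7.61), and Nid2 (25.8 ± 3.63) stood above Lamb2 (21.3 ± 2.23) in each of the 4 libraries, although their ranges overlapped.

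**Figure D3:**
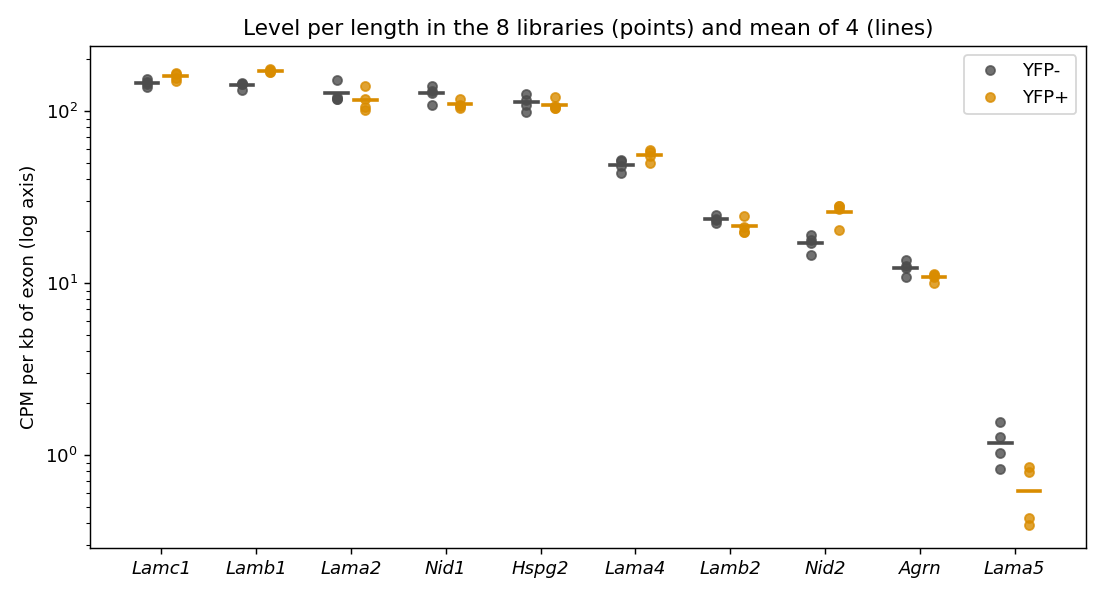
Level of each gene in CPM per kb of exonic length on a log axis, with YFP- in grey and YFP+ in orange, points for libraries and lines for the mean of 4. The libraries of the 5 highest genes lie between 98.8 and 176 CPM per kb, and those of Lama5 between 0.391 and 1.54.

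Added up within each chain class, also with the chain genes outside the 10, the trimer parts stood at similar totals. The α chains summed to 189 ± 15 CPM per kb in YFP- and 191 ± 14 in YFP+, with 2 pairs up and 2 down. The β chains summed to 165 ± 6.39 and 194 ± 5.55, higher in YFP+ in 4 of 4 pairs with the gates apart, and the γ chains to 148 ± 6.28 and 160 ± 7.30, higher in 4 of 4 pairs with the gates overlapping (SD, n = 4 each). Lamb1 made up 84.9% ± 0.735 of the β chains in YFP- and 88.0% ± 1.01 in YFP+, and Lamc1 98.4% ± 0.252 of the γ chains in YFP- and 98.7% ± 0.261 in YFP+.

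The make-up differed between the gates within the nidogens and within the chain classes. Nid2 was 11%, 14%, 13% and 10% of the nidogen level per kb in YFP- replicates 1 to 4 and 19%, 21%, 20% and 16% in YFP+ replicates 1 to 4, so every YFP+ share was above every YFP- share. The log2 ratio of Nid2 to Nid1 was higher in YFP+ by 0.80 ± 0.11 (SD over 4 pairs). That of Lamb2 to Lamb1 fell by 0.43 ± 0.17, with Lamb2 at 13% to 15% of the β chains in YFP- and at 10% to 12% in YFP+. That of Lama4 to Lama2 was higher by 0.33 ± 0.09, in 4 of 4 pairs but with the gates overlapping. Agrn to Hspg2 fell by 0.13 ± 0.08, also in 4 of 4 pairs with overlap, and Lama5 to Lama2 fell by 0.83 ± 0.53. These ratios are descriptions and were not tested.

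**Figure D4:**
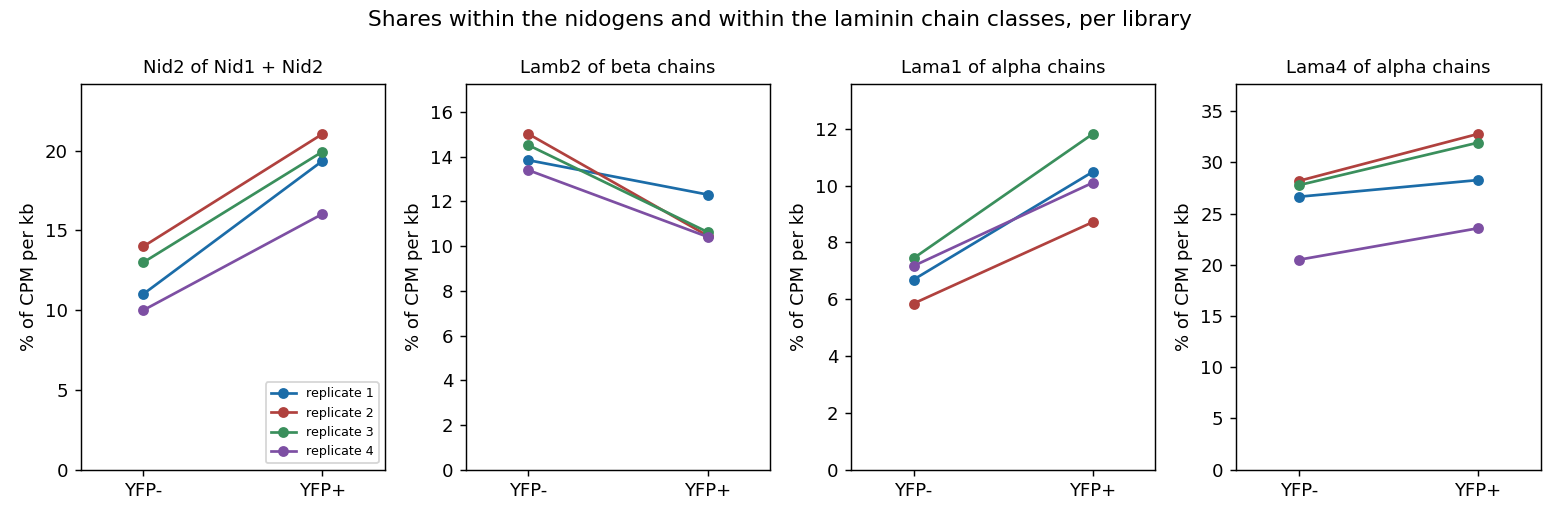
Share of Nid2 in the nidogens, of Lamb2 in the β chains and of Lama1 and Lama4 in the α chains, in percent of CPM per kb, per library, with same-numbered libraries joined. The gates are apart for Nid2 (10% to 14% against 16% to 21%), Lamb2 and Lama1, and overlap for Lama4.

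Across libraries of one gate, the genes differed in spread. Lamb1, Lamc1 and Lamb2 varied least in YFP- (coefficients of variation of 4.33%, 4.25% and 4.22%), and Lama5 varied most in both gates (26.5% and 38.8%). The libraries numbered 4 held the lowest Lama4, Lamb2 and Nid2 and the highest Lama2 of both gates. They also held the lowest Acta2 and Myh11, genes of contractile smooth muscle, in both gates. The summed level of 8 smooth muscle markers was 187 CPM in YFP- replicate 4 against 407 to 465 CPM in the other YFP- libraries, and 362 CPM in YFP+ replicate 4 against 580 to 878 CPM in the other YFP+ libraries. Of these 8 markers 7 rose in YFP+ and none fell, and without the block 2 rose. Of 8 mural cell markers 2 rose and 2 fell, with a summed level of 1378 to 1500 CPM in YFP- and 1530 to 1733 CPM in YFP+. Neither list had a marker at 0 in all libraries, and their part in the rise of Nid2, Lamb1 and Lama4 was not tested. Without the libraries numbered 4, Nid2, Lamb1 and Lama4 still passed. In the other pairs the summed smooth muscle markers were also higher in YFP+, at 580, 878 and 678 CPM against 407, 465 and 438 CPM in YFP-. Leaving out the libraries numbered 4 therefore did not test their part.

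Fibroblast markers had the highest summed level of the cell type lists, with Col3a1, a fibrillar collagen, at 14757 to 20745 CPM. RNA levels do not give the share of cells of each type. Of 8 fibroblast markers 5 fell and none rose (2 fell without the block), from a summed 40280 to 47615 CPM in YFP- to 35181 to 38854 CPM in YFP+. Ptprc, which encodes CD45, was at 0.535 to 6.22 CPM and Pecam1, which encodes CD31, at 2.63 to 11.8 CPM. The blood cell markers, Ptprc among them, were uneven across libraries. Added up, they reached 301, 82.1, 292 and 192 CPM (YFP- replicates 1 to 4), against 336, 42.0, 130 and 205 CPM (YFP+ replicates 1 to 4). Igha, the most abundant of them, spanned 51.7 to 212 CPM (YFP-) and 21.2 to 249 CPM (YFP+). Of 9 endothelial markers 7 were tested and 3 fell, or 1 without the block (60.4 to 90.1 CPM summed in YFP-, 40.7 to 52.4 CPM in YFP+), and their part in the Lama4 result was not tested. Of 8 blood cell markers 5 were tested and 1 fell, of 5 mesothelial markers 2 were tested and neither passed, and of 4 markers of interstitial cells of Cajal 1 rose. Library totals ran from 23272858 to 29829232 counts, and the mitochondrial share from 4.13% to 4.86% in YFP+ and from 5.20% to 7.38% in YFP-.

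The genes whose level over the 8 libraries was most like that of Nid2, among 8640 other genes averaging 10 CPM or more, were Agt, the angiotensinogen gene (Pearson r = 0.98), Kcnk3, a potassium channel (0.97), and Sertm1 (0.97). For Lamb1 they were Cxcl16, a chemokine (0.99), Fn1, fibronectin (0.99), and Col6a5, a collagen VI chain (0.98). These r values are over log2 CPM in libraries that fall into 2 gates, and they are given as a description.

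For the lists of related genes below, the shares over all genes tested are 11.5% called with the block and 4.26% without it. With the block it is 23% among genes averaging 50 CPM or more. Other laminin chains were split. Of 5 other chain genes and netrin-4, 2 rose and 2 fell. Lama1, an α chain of early embryonic basement membranes, rose from 125 ± 19.7 to 190 ± 25.6 CPM (SD, n = 4 each), which is 0.61 on the log2 scale (edgeR's adjusted p was 4.25e-08), and its share of the α chain level went from 6.79% ± 0.700 to 10.3% ± 1.28. Ntn4, which encodes netrin-4, a protein that binds laminin and loosens its network, fell (-0.92, edgeR adjusted p = 1.16e-08). Lamc3 rose (1.74) from below 1 CPM on average, and did not pass without the block.

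The collagens of the basement membrane separated by chain. Of 8 genes 4 rose and 3 fell, where 11.5% of all genes tested and 23% of those averaging 50 CPM or more were called. Col4a1, of the common collagen IV trimer, rose from 2381 ± 194 to 2844 ± 167 CPM (0.26), Col18a1, the source of endostatin, rose (0.43), and so did Col15a1 (0.24). Col4a4 fell from 13.2 ± 1.74 to 6.38 ± 1.45 CPM (-1.07), and Col4a3 (-0.89) and Col4a5 (-0.29) fell as well. Without the block Col18a1 and Col4a4 were the 2 that passed.

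Receptors were called in both directions, with the largest change in a gene of low level. Of 14 receptor genes for laminin, perlecan and agrin 2 rose and 4 fell, and without the block 0 and 3. Itgb4, the integrin β chain of epithelial and Schwann cell attachment, fell from 9.02 ± 2.06 to 1.32 ± 0.406 CPM (SD, n = 4 each; log2 fold change -2.79, edgeR adjusted p = 2.26e-08). Its partner Itga6 fell too (-1.07), beside the fall of the glial and epithelial markers given above. Sdc4, a syndecan, fell (-0.47), while Itgb1, the common integrin β chain and the most abundant of the list, rose (0.19), as did Sdc1 (0.38).

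Enzymes that build the sugar chains read by these proteins changed unevenly. Of 13 enzymes that glycosylate dystroglycan, edgeR called 0 with and 0 without the block. At an unadjusted p under 0.05 edgeR had 2 of the 13, and DESeq2 and limma-voom with the replicate number called 0 and 0 after adjustment. Without the libraries numbered 4, edgeR called 1 of the 13, Ispd, named here after its values were seen (log2 estimate -0.32, adjusted p 0.0492). Of 18 heparan sulphate genes 2 rose and 4 fell. Hpse, the heparanase, rose (0.61), and Hs6st1, a sulphotransferase, rose (0.44). Xylt1, which starts the chain, fell (-0.52), as did Hs2st1 (-0.35), Sulf1, a sulphatase (-0.19), and the polymerase Ext1 (-0.37), the most abundant of the list. Without the block 2 rose and 2 fell, and Sulf1 and Ext1 did not pass.

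Of 17 other components and enzymes 5 rose and 4 fell, and without the block 2 and 1. Hmcn1, a hemicentin, rose (0.50), and so did Pxdn, the peroxidase that crosslinks collagen IV (0.34), and Papln (0.68). Fbln1, a fibulin, fell (-0.46), with Smoc2 (-0.35) and Sparc (-0.19), a collagen-binding protein and the most abundant of the list, which went from 2493 ± 241 to 2176 ± 80.8 CPM (SD, n = 4 each).

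**Figure D5:**
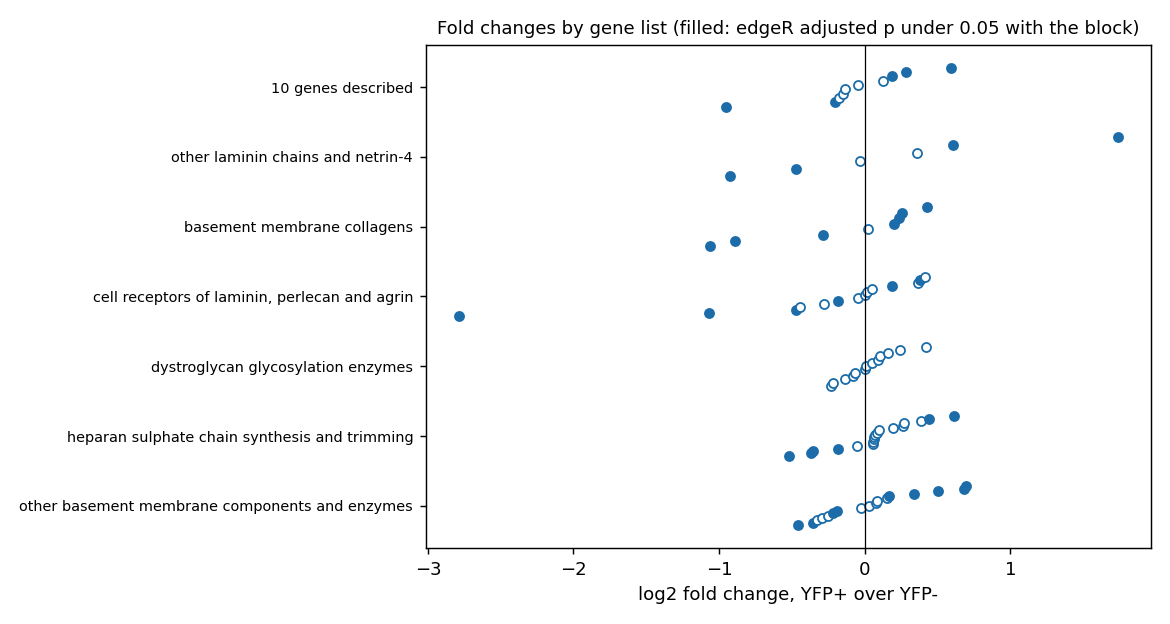
Log2 fold change of YFP+ over YFP- (horizontal axis) for the 10 genes described and for 6 lists of related genes (rows), 1 point per gene, filled where the edgeR adjusted p with the block was under 0.05. Called genes lie on both sides of 0 in every row but that of the dystroglycan enzymes, where 0 of 13 were called.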

How the data were processed

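Whole-number counts of each gene in each library, not normalised, were taken as deposited. The tools named by the submitters' processing notes are DESeq2, featureCounts 2.0.1, STAR 2.7.3a and cutadapt 3.4, with the build GRCm38 (mm10). Whether counting used strand is not given in the sources used here. Log2 fold changes and adjusted p-values from the authors' deposited table were only quoted.

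Counts were tested in R 4.3.3 with edgeR 4.0.16 (filterByExpr, TMM scaling, robust quasi-likelihood F test, Benjamini-Hochberg threshold 0.05), with the replicate number as a block. DESeq2 1.42.0 with the number matched the deposited fold changes to within 0.0005. Over 5200 abundant genes, deviations of same-numbered libraries correlated at 0.60, 0.64, 0.38 and 0.57, and those of other pairs at -0.42 to 0.05. The deviations are from the mean of each gate, so positive values for same-numbered libraries push those of other pairs down. No label states what a number shares. CPM used TMM-scaled totals. SE is the absolute log2 fold change divided by the square root of F.

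Levels per kb used exonic lengths from GENCODE M21, which held 53706 of the 53801 identifiers. Of the dystroglycan enzymes, 2 were found under the older symbols Ispd and Tmem5. Named genes were all 10, and from each related list the most abundant gene and, in each direction, the called genes of lowest p (3 at most); 2 of these are not reported here. The genes and lists were chosen with earlier results of these data known. Alternatives were no block, RLE and upper-quartile scaling, 2 other filters, DESeq2, limma-voom (limma 3.58.1), no mitochondrial genes, and removal of pairs or single libraries. No pair of libraries within a gate agreed within sampling noise, and pairs across the gates were not checked.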

Additional observations from a re-analysis of the deposited data

Results flagged for a closer look

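In 5 of the 30 sets tested (a gene or ratio within a gate), 1 library stood apart from the other 3. Chance alone flags about 1 in 20 sets, which is 1.5 here. Lama2 was high in YFP- replicate 4 (2479 CPM), Lamb1 was low in YFP- replicate 2 (1303 CPM), Nid2 was low in YFP+ replicate 4 (105.5 CPM) and Hspg2 was high in YFP+ replicate 1 (1715 CPM). The ratio of Lamb2 to Lamb1 per kb was high in YFP+ replicate 1 (0.142).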

How the results depend on the processing

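Without the replicate block, 2 of the 10 genes were called instead of 5, 697 of all genes instead of 1880, and 14 of the 76 related genes instead of 32. With the block and 1 pair left out, the counts ran from 4 to 7, from 1182 (without the libraries numbered 3) to 1581 and from 22 to 27. Without the block and with 1 library left out, 1 or 2 of the 10 genes were called. The counts over all genes were then 672, 620, 499 and 517 without YFP- replicates 1 to 4 and 520, 645, 427 and 633 without YFP+ replicates 1 to 4. Those over the related genes were 17, 11, 11 and 13, then 12, 14, 11 and 14. Scaling, filters, DESeq2, limma-voom and removal of mitochondrial genes gave 5 to 7 called genes of the 10. The log2 estimate for Hspg2, never called, turned to 0.021 without the block and YFP- replicate 1. The 5 ratios between genes kept their direction with each pair left out in turn. Lama5 rests on 119 to 397 counts per library, and each of the other 9 genes on at least 2006.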
